A study of Mus musculus with 176 samples.

Results

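Transcripts that usually mark B cells and antigen presenting cells were followed in single CD4 T cells after immunization with P6, a peptide of apolipoprotein B, which low density lipoprotein particles carry. The 9 genes were Ighm, Igkc, Cd79a, Cd79b and Ms4a1, which mark B cells, and Cd74, H2-Aa, H2-Ab1 and H2-Eb1 of the MHC class II family. They were taken by name from the gene count table, which held all 9 among 53546 different names. The question was whether Ighm or Cd74 reads came with other B cell transcripts in the same cell or stood alone in cells that carry T cell transcripts.

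All cells were C57BL/6J. The P6+ cells came from a female mouse that was 7 weeks old at the first immunization, was primed with P6 in complete Freund's adjuvant at week 0, boosted with incomplete adjuvant at week 2 and sampled at week 4, at 11 weeks of age. Cells from inguinal and para-aortic nodes were enriched for CD4 T cells by magnetic depletion with antibodies to markers of other lineages, among them CD8a, NK1.1, CD11c, F4/80, CD11b, TER-119 and CD45R, and were then sorted as single TCRb+ CD4+ CD44hi CD62L- cells outside a gate for those markers. P6+ cells bound the P6:I-Ab tetramer in both colours and P6- cells did not. By the study's methods, P6- cells were taken from the rest of the volume of the sample that gave the P6+ cells, so both had this immunization. The tetramer is made of the proteins that H2-Aa and H2-Ab1 encode. The 32 P6+ cells all passed, and 15 P6- cells (10.4% of those sorted) did not pass, limits of 500000 reads, 2000 detected genes and less than 10% mitochondrial reads. All P6+ cells came from 1 mouse, so each group was taken as 1 sample, no test between the groups was possible, and the intervals below cover counting error only.

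In B cells, Ighm and Igkc encode the constant regions of the mu heavy chain and the kappa light chain, and a V, a J and, in the heavy chain, a D segment are joined upstream of them by rearrangement. Cd79a and Cd79b encode the signalling pair of the B cell receptor, and Ms4a1 encodes CD20. MHC class II proteins are built from an alpha and a beta chain, such as the products of H2-Aa and H2-Ab1, and CD74, the invariant chain, guides them through the cell until peptide is loaded. Mouse T cells are known to make little or no class II protein of their own, whereas B cells, dendritic cells and macrophages carry it.

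Passing P6+ cells held 956280 to 3332191 reads and passing P6- cells 522188 to 3401372 reads, with medians of 4396 and 3432 detected genes. The cell names carried 8 prefixes, and all 32 P6+ cells shared a prefix with 11 passing P6- cells, so comparisons with those 11 are given beside the others. A gene was counted as present in a cell at 10 or more reads.

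Of the 9 genes, 4 reached 10 reads in any passing cell. Ighm did so in 44 passing cells (27.3%) and Cd74 in 31 (19.3%), against 3 for Igkc and 2 for Cd79b. Cd79a, Ms4a1, H2-Aa, H2-Ab1 and H2-Eb1 reached it in 0 cells, for which 3 counts would allow a share of up to 1.86%. The plot of reads per cell shows that presence was close to an all-or-none state for Ighm and Cd74.

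**Figure D1:**
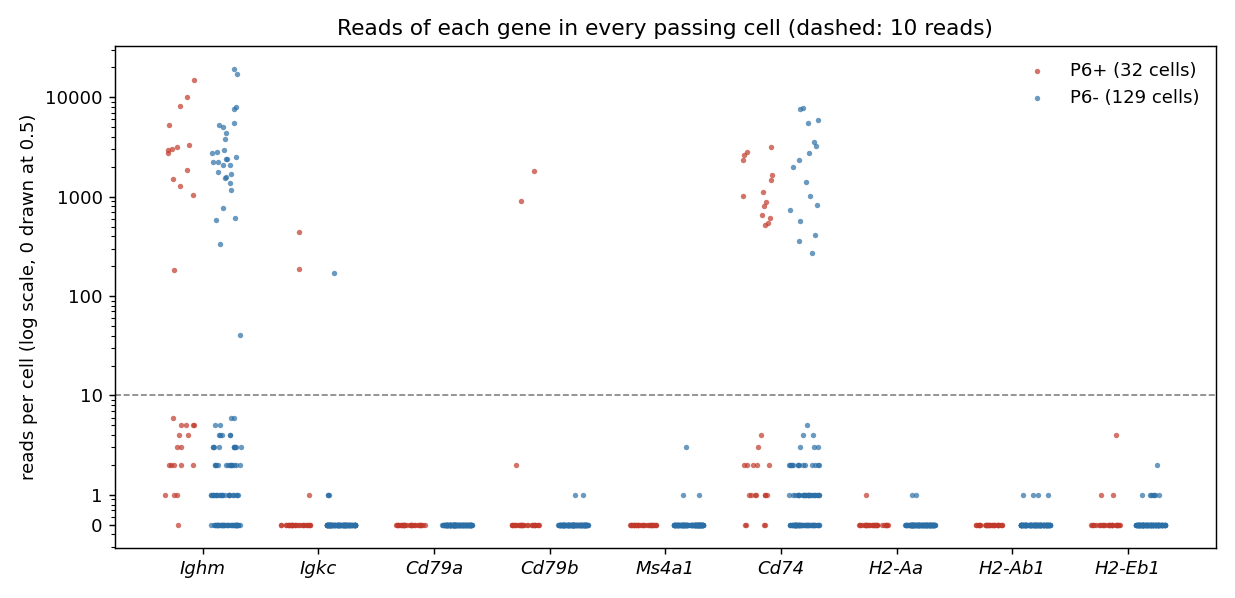
Reads of each of the 9 genes in every passing cell on a log axis, with 0 drawn at 0.5, for the passing P6+ and P6- cells; each point is a cell and the dashed line is 10 reads. Ighm and Cd74 have a cloud of cells far above the line, Igkc and Cd79b have 3 and 2 such cells, and the other genes have none.

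Ighm, the mu heavy chain constant gene, lies on chromosome 12 of GRCm38 from 113418558 to 113422730 on the minus strand. It was present in 14 of 32 P6+ cells (43.8%, exact binomial interval 26.4 to 62.3%) and in 30 P6- cells (23.3%, 16.3 to 31.5%). The intervals of the 2 groups overlapped, but they did not when 1 read counted as present (83.8 to 99.9% and 57.03 to 74.01%). Of 8289 genes present in 5 or more cells, 6.36% had a share in P6+ cells whose interval lay above that of P6- cells and 0.217% had one that lay below. These shares of all genes are for 10 reads, and none was taken for 1 read. Among the P6- cells with the prefix of the P6+ cells, 3 of 11 had Ighm, and over the 8 prefixes the share of P6- cells ranged from 10 to 33.3%.

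The P6+ cells with Ighm held from 181 to 14906 reads of it, with a median of 2976.5, and the P6- cells from 41 to 19307, with a median of 2305. Cells counted as lacking Ighm held at most 6 reads, and a single cell lay between 10 and 49 reads. Low counts were frequent, with 1 to 9 reads in 17 P6+ and 55 P6- cells. Their share of P6- cells varied by prefix, from 4 of 20 cells with prefix 4 to 16 of 20 with prefix 8. The part of the prefix in the low counts was not tested. The ranges of the high cells of the 2 groups overlapped, and a wide gap lay below nearly all of them.

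Summed over cells, Ighm reached 999 counts per 1000000 reads (cpm; Poisson interval 991 to 1007) in P6+ cells and 548 cpm (545 to 551) in P6- cells, a log2 ratio of 0.87 with a pseudocount of 1 cpm. With the 11 P6- cells of the same prefix, at 300.1 cpm, the log2 ratio was 1.73, and 51.8% of all genes tested in that comparison were above 1. Against all P6- cells, of 9809 genes with 5 or more cpm in the higher group, 24.1% had a log2 ratio above 1 and 32.1% one below -1. The ratio of Ighm against all P6- cells lay inside those limits. Fewer cells with a transcript and less of it per cell cannot be told apart in such sums.

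Igkc, the kappa light chain constant gene on chromosome 6 from 70726435 to 70726966 on the plus strand, was present in 3 cells. It had 185 reads in P6+ cell 2, 437 in P6+ cell 31 and 171 in a P6- cell. No other cell had more than 1 read. These 3 cells also held Ighm, at 1030, 8171 and 332 reads, and Cd74, at 3168, 606 and 1397 reads. The pooled level was 10.5 cpm in P6+ and 0.853 cpm in P6- cells, a log2 ratio of 2.63 that rested on 2 P6+ cells and was 2.06 without the highest cell of each group. The gene lies within an annotated non-coding locus, Gm30211.

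In a mature B cell the constant region transcripts start with a rearranged V segment. Reads of V segments were counted over 183 Ighv, 160 Igkv and 3 Iglv names. Of the 44 cells with Ighm, 0 had 10 or more reads of Ighv, Igkv or Iglv names (3 counts would allow 6.82%), and the highest count in any of them was 1 for Ighv, 4 for Igkv and 0 for Iglv. The 20 Ighd D segment names held 0 reads in every cell. V reads above 10 were found in cells without Ighm. Ighv1-73 had 274 of the 275 Ighv reads of P6- cell 24, Ighv3-1 had 13 reads in another P6- cell, and Igkv14-130 had 88 reads in P6+ cell 6.

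J segments, which lie between V and constant genes, were found in cells without V reads. Ighj names had 10 or more reads in 8 cells, 3 P6+ and 5 P6-, and all 8 had Ighm. Ighj1 was present in each of the 8. P6+ cell 24 had 572 Ighj reads, 434 of Ighj1 and the rest of Ighj2, and P6+ cell 11 had 39, 43, 37 and 45 reads of Ighj1, Ighj2, Ighj3 and Ighj4. In the other 6 cells every Ighj read was of Ighj1, with 18, 26, 34, 48 and 66 reads in 5 of them and the most in P6- cell 20, at 1.92% of its Ighm reads. Ighj reads came to between 0.318 and 8.77% of the Ighm reads of the same cell. Igkj names had 10, 7 and 2 reads in P6+ cell 2, P6+ cell 31 and the P6- cell, the 3 cells with Igkc, and 0 in every other passing cell, and Igkv names had 0 reads in those 3. Counts per gene do not show which segments were joined in one transcript.

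The segments that carried these reads are printed from the transcripts of GENCODE M21 (GRCm38) with the first bases of the constant genes that they precede, in the direction of transcription. Capitals mark TGGGG in the heavy chain segments and TTCGG in the kappa segments, letters at the start of the conserved tryptophan or phenylalanine motif.
Ighj1, chr12:113429781-113429833, minus strand: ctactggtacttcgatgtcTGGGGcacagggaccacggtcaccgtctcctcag
Ighj2, chr12:113429468-113429515, minus strand: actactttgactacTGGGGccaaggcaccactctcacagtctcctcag
Ighj3, chr12:113429085-113429132, minus strand: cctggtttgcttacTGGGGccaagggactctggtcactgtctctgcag
Ighj4, chr12:113428514-113428567, minus strand: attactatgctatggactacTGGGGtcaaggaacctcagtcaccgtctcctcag
Igkj1, chr6:70722562-70722599, plus strand: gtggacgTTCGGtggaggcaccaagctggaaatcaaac
Igkj5, chr6:70723886-70723923, plus strand: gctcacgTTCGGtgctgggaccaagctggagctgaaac
Ighm, first 60 bases of the constant region, chr12:113422671-113422730, minus strand: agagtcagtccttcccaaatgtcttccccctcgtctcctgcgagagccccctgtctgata
Igkc, first 60 bases of the constant region, chr6:70726435-70726494, plus strand: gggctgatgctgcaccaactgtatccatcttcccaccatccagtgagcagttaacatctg

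Cd79b, which encodes the beta chain of the receptor's signalling pair, was present in 2 P6+ cells, at 1828 reads in P6+ cell 21 and 905 reads in P6+ cell 23. It was present in 0 P6- cells, where the exact interval reaches 2.82%, and no P6- cell had more than 1 read. Its pooled level was 46.1 cpm in P6+ and 0.0098 cpm in P6- cells, a log2 ratio of 5.54 from those 2 cells and of 4.09 without the highest cell of each group. Its partner Cd79a had 0 reads in every passing cell, and Ms4a1 had 5 reads in all, at most 3 in a cell. Of the 4 members past 5 cpm in either group, Igkc and Cd79b had log2 ratios above 1, where 24.1% of all genes did.

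The class II chain genes were at the limit of detection. H2-Aa, the I-A alpha chain (chromosome 17, 34282744 to 34287823, minus strand), had 3 reads in all. H2-Ab1, the I-A beta chain (34257689 to 34269419, plus strand), had 4, and H2-Eb1, an I-E beta chain (34305867 to 34316674, plus strand), had 15, at most 4 in a cell. At these depths 3 counts correspond to 0.0506 cpm over P6+ cells and 0.0147 cpm over P6- cells. The wells of tetramer-binding cells therefore held next to no H2-Aa or H2-Ab1 reads, with 1 and 0 reads in the 32 P6+ cells.

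The promoters of H2-Aa and H2-Eb1 from RefSeq's table (GRCm38.p6), 150 bases up to the start site, are shown because class II genes share conserved boxes there. Capitals mark ATTGG or its reverse CCAAT, the core of the Y box bound by NF-Y. H2-Aa has it once, 48 bases before the start. H2-Eb1 has it 2 times, the nearer 35 bases before the start. Among 32851 promoters, 24.5% hold one of these 5-letter words in the same window, so a match is a description of the letters only. The table held 3 of the 9 members, these and Cd79a.
H2-Aa, chr17:34287824-34287973, minus strand: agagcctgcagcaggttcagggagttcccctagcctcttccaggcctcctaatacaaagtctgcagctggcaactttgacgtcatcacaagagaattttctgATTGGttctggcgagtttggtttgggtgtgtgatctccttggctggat
H2-Eb1, chr17:34305717-34305866, plus strand: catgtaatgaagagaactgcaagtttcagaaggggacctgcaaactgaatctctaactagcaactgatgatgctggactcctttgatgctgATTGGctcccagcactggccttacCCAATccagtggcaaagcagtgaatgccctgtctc

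The remaining genes of the class II pathway were read from a list of 21 names, 19 of them in the table. Ciita, the master activator of class II genes, and Rfx5, a subunit of the complex on their X box, were present in 0 cells. Of the 19, 10 were present in 3 or more cells. Those in most cells were Ctss, a lysosomal protease that cuts the invariant chain (63 cells), Nfyc, a subunit of NF-Y (20 cells), Cd83, which stabilizes surface class II (18 cells), Lgmn, a lysosomal endopeptidase (12 cells), Rfxap, a partner of Rfx5 (10 cells), and Nfyb, another NF-Y subunit (8 cells). Of 10 list genes with 5 or more cpm, 1 had a log2 ratio above 1 (Lgmn, 1.86) and 6 had one below -1, where 24.1 and 32.1% of all genes did, with a list median of -1.96 against -0.12 over all genes tested. H2-Oa, the alpha chain of H2-O, which restrains peptide loading, was present in 5 cells, all P6-, and 56.9% of its reads were in 1 cell. Of the 6 genes below -1, H2-DMa (73.8%), Nfyb (61.02%) and Rfxank (50.1%) also had most of their reads in a single P6- cell. Class I genes, added after their values were seen, were found throughout: H2-K1 and H2-D1 were present in every passing cell and B2m in 150.

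Cd74, the invariant chain gene (chromosome 18, 60803848 to 60812652, plus strand), was the 1 class II member present in any cell. It was present in 14 of 32 P6+ cells (43.8%, 26.4 to 62.3%) and in 17 P6- cells (13.2%, 7.87 to 20.3%), and these intervals did not overlap. Without the 5 cells that held Igkc or Cd79b they did (35.7%, 18.6 to 55.9%, and 12.5%, 7.32 to 19.5%), but all 5 held Cd74 and 4 were P6+, so this exclusion could only lower the P6+ share. As given above, 6.36% of genes had a share that was higher in P6+ cells by this rule. Against the 11 P6- cells of the same prefix, 2 of which had Cd74 (18.2%, 2.28 to 51.8%), the intervals overlapped, and 0.422% of genes were higher in P6+ cells by the rule. Over the 8 prefixes the share of P6- cells with Cd74 ranged from 0 to 21.4%.

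**Figure D2:**
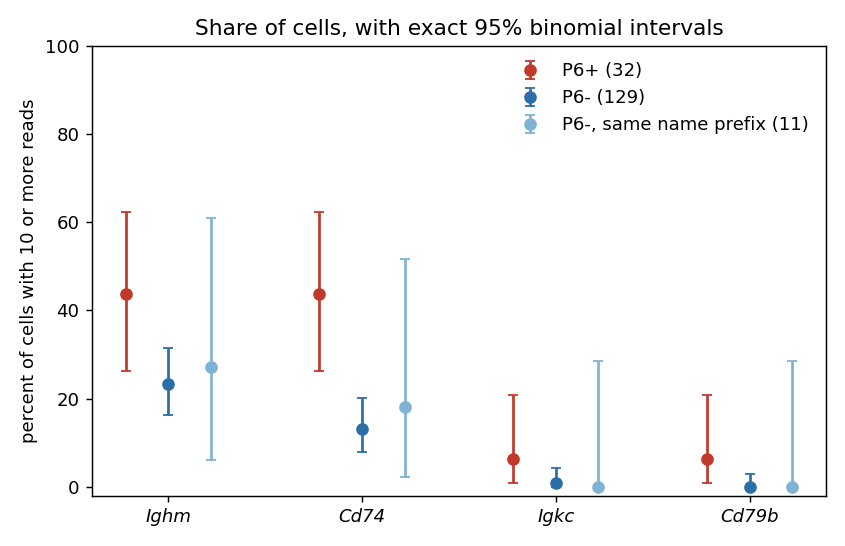
Share of cells with 10 or more reads of Ighm, Cd74, Igkc and Cd79b, in percent, with exact 95% binomial intervals for counting error, in the passing P6+ cells, the passing P6- cells and the 11 P6- cells that share the name prefix of the P6+ cells. For Cd74 the P6+ interval starts at 26.4% and the interval of all P6- cells ends at 20.3%, whereas the wide interval of the 11 cells spans both.

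P6+ cells with Cd74 held 514 to 3168 reads of it, with a median of 1058.5, and P6- cells 271 to 7741, with a median of 2001. Other cells held at most 5, and 14 P6+ and 48 P6- cells had 1 to 9 reads. The share of cells with Cd74 was larger in P6+ cells, and the median of the cells that had it was lower than in P6- cells. Summed over cells, Cd74 reached 341 cpm (336 to 346) in P6+ and 227 cpm (225 to 229) in P6- cells, a log2 ratio of 0.58, and 1.01 against the cells of the same prefix, where 51.8% of all genes tested were above 1. Per kilobase of exon and 1000000 reads, the level of Ighm was 530 in P6+ and 290.4 in P6- cells, and that of Cd74 was 203 and 135.2, so Ighm was the higher of the pair in both groups.

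Cd74 was found more often in cells with Ighm than in cells without it. In all passing cells, 19 of 44 cells with Ighm also had Cd74 (43.2%, 28.3 to 58.97%), against 12 of the cells without Ighm (10.3%, 5.41 to 17.2%). The intervals did not overlap at this threshold, but did when 1 read counted as present (62.9%, 53.5 to 71.7%, and 44.4%, 29.6 to 60.003%). Of 8288 genes, 3.62% were present more often with Ighm by this rule and 0.0965% less often. For Cd74 these shares were 3.79 and 0.169%. The groups taken apart showed the same direction with overlapping intervals at 10 reads. In P6+ cells Cd74 was present in 10 of 14 cells with Ighm (71.4%, 41.9 to 91.6%) and in 4 of 18 without (22.2%, 6.41 to 47.6%). In P6- cells it was present in 9 of 30 with Ighm (30%, 14.7 to 49.4%) and in 8 of 99 without (8.08%, 3.55 to 15.3%).

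**Figure D3:**
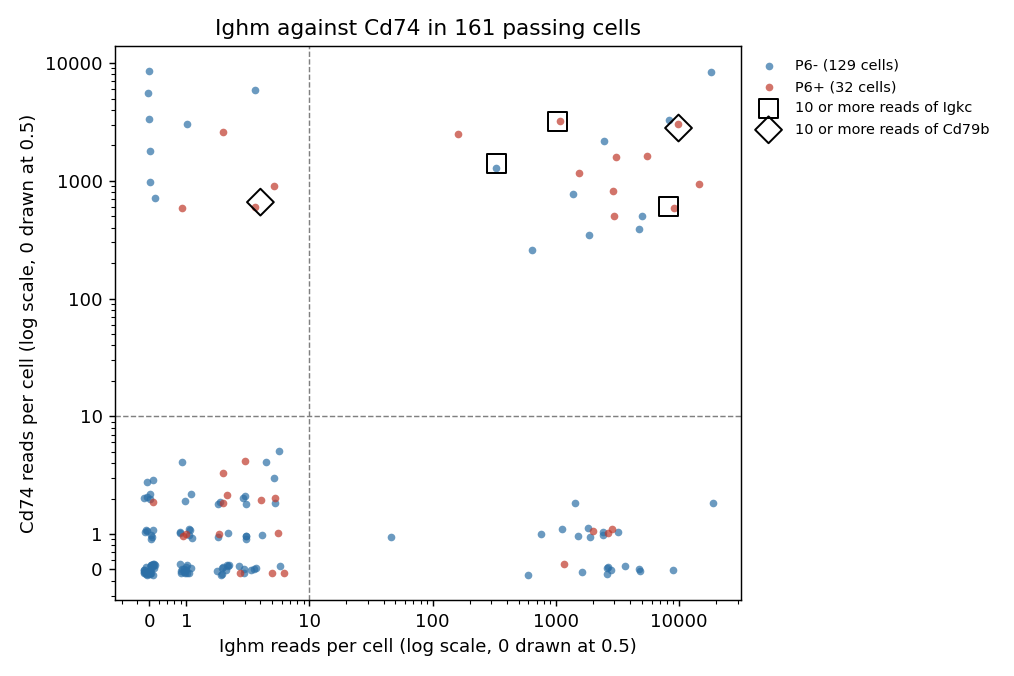
Reads of Ighm (x) against Cd74 (y) in every passing cell, both on log axes with 0 drawn at 0.5 and points moved slightly to part overlaps; dashed lines are 10 reads. The upper right holds 19 cells with both, and the black outlines mark the 3 cells with Igkc and the 2 with Cd79b, all above the Cd74 line.

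The proportions of the 2 transcripts differed widely between cells. Among the 19 cells with both, Ighm exceeded Cd74 in 8 of 10 P6+ and 7 of 9 P6- cells. The cell with most of both was a P6- cell with 19307 reads of Ighm and 7741 of Cd74. P6+ cell 15 had 181 reads of Ighm and 2621 of Cd74, and P6- cell 48 had 17099 of Ighm and 2 of Cd74.

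Ighm without any other member was found in 4 P6+ and 21 P6- cells, and Cd74 without any other member in 3 and 8. Both genes without a further member were found in 7 and 8 cells. All 9 members were absent from 14 P6+ and 91 P6- cells. A B cell set (Cd79a, Cd79b, Ms4a1 and Igkc) and a class II set (Cd74, H2-Aa, H2-Ab1 and H2-Eb1) were counted as held by a cell with 2 or more of their 4 genes. The B cell set was held by 0 passing cells, which allows a share of up to 1.86%. The class II set was held by 0 as well, which follows from the absence of the 3 H2 genes given above. The 3 cells with Igkc lacked Cd79b, and the 2 with Cd79b lacked Igkc. The B cell set leaves out Ighm and Cd72, so its 0 does not cover cells that hold these beside a gene of the set. P6+ cell 31 held 8171 reads of Ighm, 437 of Igkc, 606 of Cd74, 26 of Ighj1 and 2327 of Cd72.

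The cells with Ighm or Cd74 carried T cell transcripts. A T cell receptor constant gene (Trac, Trbc1 or Trbc2) was present in 44 of 44 cells with Ighm and 31 of 31 with Cd74, against 93.2 and 93.8% of the cells without. A CD3 gene was likewise present in 44 of 44 and 31 of 31, against 86.3 and 87.7%. Of 14 T cell genes, the median cell with Ighm had 10 and the median cell with Cd74 also 10, against 9 in the cells without the gene in each case. Of these 14, 12 had a larger share of cells with Ighm than without and 2 a smaller one, and for Cd74 the numbers were 9 and 5. No like tally was taken over all genes. Cells with either member had more detected genes, so the counts cannot be read as particular to T cell genes. These counts pool the tetramer groups. Within P6- cells they were 12 and 2 for Ighm and 10 and 4 for Cd74, but within P6+ cells they were 8 and 5 for Ighm and turned to 3 and 10 for Cd74, with 1 gene equal in each case. The pooled intervals were apart for Cd2 with Ighm and for Cd3e with Cd74, each higher, where 3.62 and 3.79% of all genes were, and overlapped for the others, so 1 gene of 14 is near that background. Within P6+ cells 0 of the 14 were apart for either gene. Cd4 itself was present in 45.5% of cells with Ighm and 29.9% without, and in 32.3% of cells with Cd74 and 34.6% without. The pooled shares for Cd74 hide opposite directions in the groups. In P6+ cells Cd4 was present in 4 of 14 with Cd74 (28.6%) and 12 of 18 without (66.7%). In P6- cells these shares were 35.3 and 29.5%, and the intervals overlapped in both groups. With and without Ighm the shares were 57.1 and 44.4% in P6+ and 40 and 27.3% in P6- cells, also with overlapping intervals. Of genes that mark B cells, Pax5, Cd79a and Ms4a1 were present in 0 passing cells, and Igkc and Cd79b were present in the 3 and 2 cells given above. Cd72, a B cell surface receptor, was present in 4 of 19 cells with both Ighm and Cd74 (21.1%, 6.05 to 45.6%). It was also present in 4 cells with neither (3.81%, 1.05 to 9.47%), and these intervals overlapped. In P6+ cells Cd72 was present in 4 of 10 cells with both and 2 of 14 with neither, with overlapping intervals. In P6- cells it was present in 0 of 9 with both and in 2.20% of those with neither.

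**Figure D4:**
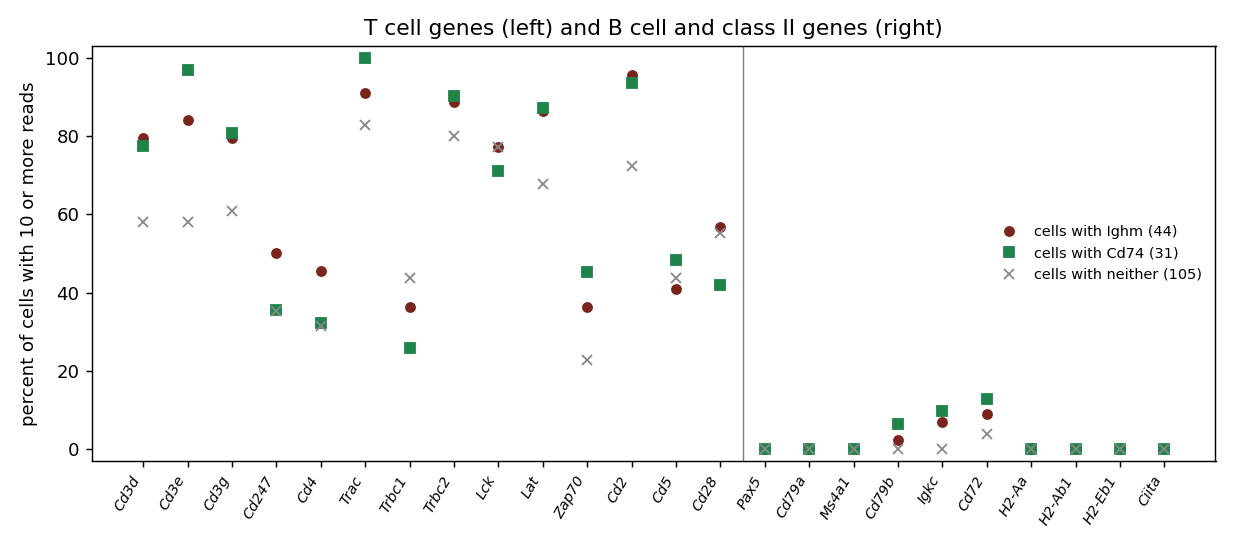
Percent of cells with 10 or more reads of 14 T cell genes (left of the line) and 10 B cell and class II genes (right), for 44 cells with Ighm, 31 with Cd74 and the cells with neither; 19 cells count in both of the first groups. P6+ and P6- cells are pooled. Receptor and CD3 genes are frequent in all 3 groups, and on the right Cd79b, Igkc and Cd72 are low and the other 7 genes are at 0 in all 3 groups.

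Total reads were lower in cells with Ighm and higher in cells with Cd74, and the number of detected genes was higher with either. Cells with Ighm had a median of 1398864 reads and 3796 genes, against 1655652 reads and 3529 genes without. Cells with Cd74 had 1666072 reads and 3957 genes, against 1538460 reads and 3475.5 genes. The median mitochondrial share was 1.91% with Ighm and 3.43% without, and 1.51% with Cd74 and 3.45% without. The part of these differences in the counts was not tested.

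Marker lists of the cell types that the gate could have let through were mostly empty. Of 23 further B cell genes, 13 were present in 0 cells, 7 of them with 0 reads, and Pou2f2 (20 cells) and Cd72 (8 cells) reached 3 cells. The other 8, named after their values were seen, were present in 1 or 2 cells each: Cd22, Ebf1, Bank1, Cr2, Iglc1 and Syk in cells with neither Ighm nor Cd74, Spib in 1 cell with both (13 reads), and Fcmr in 1 cell with Ighm (296 reads) and 1 with neither. The largest count among these 8 was 3247 reads of Bank1. Pou2f2 was present in 4 of 19 cells with both Ighm and Cd74, 2 of 25 with Ighm only and 4 of 12 with Cd74 only. The cells with neither, 14 P6+ and 91 P6-, held Pou2f2 in 10 cases. No intervals were taken for these shares of Pou2f2. Cd72 was present in 6 P6+ and 2 P6- cells with a log2 ratio of 3.42, and 4 of the 6 P6+ cells held both Ighm and Cd74. The summed B cell list ranged from 0 to 1350 cpm (median 1.39) over P6+ and from 0 to 1724 cpm (median 0.742) over P6- cells. Of 14 plasma cell genes, Xbp1 (74 cells), Prdm1 (10) and Irf4 (4), which T cells also use, reached 3 cells, and Jchain and the class-switched heavy chain genes of the list had 0 reads. The summed plasma cell list ranged from 0.904 to 3429 cpm (median 243.4) in P6+ and from 0 to 4674 cpm (median 6.80) in P6- cells.

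Few dendritic cell and macrophage genes were present. Of 11 dendritic cell genes, Bst2, an interferon-induced membrane protein, reached 3 cells. It was found in 29 cells, 14 P6+ and 15 P6-, with a log2 ratio of 2.14. It was present in 9 of 19 cells with Ighm and Cd74 (47.4%, 24.4 to 71.1%) and in 12 cells with neither (11.4%, 6.05 to 19.1%). Within P6+ cells it was present in 6 of 10 and 2 of 14 such cells and within P6- cells in 3 of 9 and 10.99% of them, with overlapping intervals. Zbtb46, a dendritic cell transcription factor named after its values were seen, was present in 2 cells, 1 with both members (P6+ cell 8, 5492 reads) and 1 with Ighm only. Of 12 macrophage and monocyte genes, Cst3 (39 cells) and C1qb (26 cells) did, while C1qa and C1qc, the partners of C1qb, had 0 reads. The sums over these lists ranged from 0 to 2307 and 0 to 1431 cpm in P6+ cells and from 0 to 2790 and 0 to 9990 cpm in P6- cells. Of 5 CD8 and NK cell genes, 0 reached 3 cells. The 14 T cell genes summed to between 5549 and 17429 cpm in P6+ and between 82.1 and 28425 cpm in P6- cells. The part of other cell types in the Ighm and Cd74 reads was not tested beyond these levels.

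The genes whose pattern over the passing cells was most like Cd74, by Pearson's r of log2(cpm + 1) among 8289 genes, were Ikzf2 (r = 0.57), Klrg1 (0.49), S100a6 (0.47), Rce1 (0.47) and Il1r2 (0.45). For Ighm they were Ikzf2 (0.41), Cmtm7 (0.41), Ighj1 (0.39), Cyth4 (0.39) and Snhg5 (0.37). The 99th percentile of r was 0.31 for Cd74 and 0.29 for Ighm, and r between Ighm and Cd74 was 0.35. These r are over P6+ and P6- cells together, in which tetramer group, prefix and depth vary, and are a description. Ikzf2, which encodes Helios, a transcription factor of regulatory T cells, led both lists. For Ighm its r exceeded that of Cmtm7 by less than 0.01, and among P6- cells alone it ranked 12th for Ighm and first for Cd74. It was present in 45 cells, of which 25 had Cd74, 26 had Ighm and 36 had at least 1 of both. Igkc and H2-Aa were present in fewer than 5 cells, so no genes were ranked for them.

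Foxp3, the lineage factor of regulatory T cells, was added after its values were seen. It was present in 18 of 44 cells with Ighm (40.9%, 26.3 to 56.8%) and 12 cells without (10.3%, 5.41 to 17.2%), and in 15 of 31 with Cd74 (48.4%, 30.2 to 66.9%) and 15 of 130 without (11.5%, 6.60 to 18.3%). The intervals of both pairs lay apart at 10 reads, as did those of 3.62% of all genes with Ighm and 3.79% with Cd74, and overlapped at 1 read. Within P6+ cells Foxp3 was present in 8 of 14 cells with Ighm and 3 of 18 without, with overlapping intervals, and within P6- cells in 10 of 30 (33.3%, 17.3 to 52.8%) and 9 (9.09%, 4.24 to 16.6%), with intervals apart. The shares of all genes given here pool both groups, and none was taken within P6- cells. By combination, Foxp3 was present in 12 of 19 cells with both (63.2%, 38.4 to 83.7%), 6 of 25 with Ighm but not Cd74 (24%), 3 of 12 with Cd74 but not Ighm (25%) and 9 cells with neither (8.57%, 3.99 to 15.6%). Of 30 cells with Foxp3, 21 had Ighm or Cd74. Within P6- cells alone, 9 of 17 cells with Cd74 had Foxp3 (52.9%, 27.8 to 77.02%) and 10 cells without (8.93%, 4.36 to 15.8%). Within P6+ cells these numbers were 6 of 14 and 5 of 18, with overlapping intervals. Ikzf2 was present in 15 of 19 cells with both (78.9%), 11 of 25 with Ighm but not Cd74 (44%), 10 of 12 with Cd74 but not Ighm (83.3%) and 9 cells with neither (8.57%). Since Ikzf2 was chosen for its likeness to both genes, these shares are a description. Cells with both were P6+ in 10 of 19 cases. Within P6+ cells, Foxp3 was present in 5 of 10 cells with both and 2 of 14 with neither, and Ikzf2 in 8 of 10 and 5 of 14, with overlapping intervals. Within P6- cells, Foxp3 was present in 7 of 9 cells with both and 7.69% of cells with neither, and Ikzf2 in 7 of 9 and 4.40%. Trbv13-2 was present in 2 of 9 P6- cells with both (22.2%, 2.81 to 60.01%) and in 19.8% of those with neither.

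**Figure D5:**
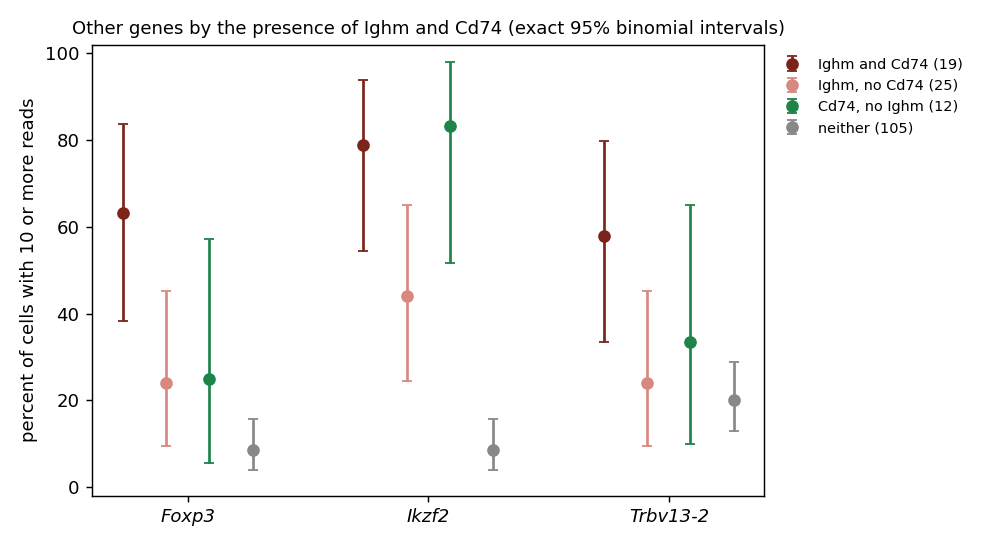
Percent of cells with 10 or more reads of Foxp3, Ikzf2 and Trbv13-2, with exact 95% binomial intervals, in 19 cells with Ighm and Cd74, 25 with Ighm but not Cd74, 12 with Cd74 but not Ighm and the cells with neither. P6+ and P6- cells are pooled, the genes were chosen with their values known, and the points describe these cells: Foxp3 is at 63.2% with both and 8.57% with neither.

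P6+ cells that share a receptor are not independent of each other, and the study reported clonally expanded P6+ cells. Clonotypes were not used here, and a shared beta segment alone does not show a shared receptor. Trbv13-2, a receptor beta segment also added after its values were seen, was present in 12 of 14 P6+ cells with Ighm (85.7%, 57.2 to 98.2%) and 4 of 18 without (22.2%, 6.41 to 47.6%). With Cd74 it was present in 10 of 14 P6+ cells and without in 6 of 18, with overlapping intervals. In P6- cells it was present in 5 of 30 cells with Ighm and 21 of 99 without. These P6- shares were 16.7 and 21.2%, and the difference between the groups was not tested.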

How the data were processed

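Single cells were sequenced by Smart-Seq2, a full-length method without molecular identifiers, with 1 library per cell. By the study's methods the libraries carried barcodes and were sequenced as a pool. Whether reads passed between libraries was not tested. The deposited table holds whole-number read counts per gene, which the authors made with STAR 2.6.0a on GRCm38 with Ensembl annotation, and FastQC 0.11.7 and SAMtools 0.1.19 stand in the submitters' processing notes. The deposited sign of tetramer binding matched the labels for 176 of 176 cells. The strand setting of the counts is not given in the sources used here, so antisense and overlapping genes could not be told apart. Following the study's methods, the counts of 81 repeated names were averaged; 0 members were among them. The study's mapping-rate limit was not applied, since mapping rates were not used here, so more P6- cells are kept here than the study kept, and some of these the study had left out. Values over all passing P6- cells rest on 129 cells, and none was taken on the study's own set of P6- cells.

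The members and lists were chosen with earlier results of these data known. Of every list the genes present in 3 or more passing cells were named, at most the 6 in most cells, with the 5 genes of highest r for Ighm and Cd74 and the leading V segment of each cell named for its V reads. Foxp3, Trbv13-2, the class I genes and genes without such cells (Pax5, Ciita and others given as 0) were named outside this rule. An item is not reported here. Shares carry exact Clopper-Pearson intervals and summed counts exact Poisson intervals at 95%, and a 0 allows 3 counts; these cover counting error only, and PCR duplicates are not independent molecules. Pooled levels are summed counts per 1000000 reads. No doublet caller was run. edgeR 4.0.16 and DESeq2 1.42.0 gave scaling factors for alternatives, with numpy, pandas and scipy for the rest. The functions were tested on simulated data before use. Gene positions are from GENCODE M21 and promoters from RefSeq, both on GRCm38. Other settings tried were the read threshold, depth, quality limits, pseudocount, scaling and the name prefix.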

Additional observations from a re-analysis of the deposited data

Results flagged for a closer look

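Of the 15 P6- cells that failed the quality limits, 1 held both transcripts outside the comparisons above. P6- cell 85, with 487916 reads, had 2822 reads of Ighm and 186 of Cd74, above the 3 counts that a 0 allows, together with 263 reads of Cd3e. The other 14 failing cells had at most 5 reads of either gene.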

How the results depend on the processing

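No paired analysis was possible because each group is 1 sample and replicate numbers were given in accession order. Of the values under the other settings, 36 moved beyond the interval or 1.5 times of the reported value, as did 7 more under settings added after the data were seen. A threshold of 1 read moved most: Ighm rose to 96.9% of P6+ and 65.9% of P6- cells, with intervals that no longer overlapped, and Cd74 to 87.5 and 50.4%; the other 5 members reached 19 cells, the B cell set 1 cell and the class II set 11 cells; and 5 cells with Ighm had a V read. Cd74 at that threshold was present with Ighm in 87.1% of P6+, 54.1% of P6- and 62.9% of all cells, and without Ighm in 100% of P6+ (1 cell), 43.2% of P6- and 44.4% of all cells. The direction in P6+ cells was thus the opposite of the reported one, against that 1 cell, and the intervals over all cells, apart at 10 reads, overlapped. At 50 reads those in P6- cells lay apart (31.03%, 15.3 to 50.8%, with Ighm and 8%, 3.52 to 15.2%, without). At 50 reads, at 10 cpm and after thinning to 522186 reads, the shares of cells with Ighm and Cd74 stayed within their intervals.

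The log2 ratio of Ighm moved to 0.84 with the mean of the cells' cpm, 1.73 with the same prefix, 0.75 without the highest cell of each group, 0.83 with TMM factors and 0.90 without quality limits. That of Cd74 moved to 0.96 with the mean of the cells' cpm, 1.01 with the same prefix, 0.55 with TMM factors and 0.65 without quality limits. With a pseudocount of 0.1 or 5 cpm the ratio was 3.47 or 1.40 for Igkc and 8.72 or 3.35 for Cd79b. With the same prefix, 51.8% of all genes tested were higher in P6+ cells, and without the 5 cpm filter 10.4% were higher and 15.97% lower. Among P6- cells alone, 2 of the first 5 like genes stayed among the first 5, for Ighm and for Cd74 alike. Added after the data were seen, the exclusion of the 5 cells with Igkc or Cd79b, all of which held Cd74, left Cd74 in 35.7% of P6+ and 12.5% of P6- cells, with intervals that overlapped. At 1 read Foxp3 was present in 43.1% of cells with Ighm and 31.1% without, and in 48.4% with Cd74 and 27.9% without, and both pairs of intervals overlapped (37.9 to 58.99% and 17.7 to 40.1% for Cd74). The cause of these moves was not tested.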
